A study of Homo sapiens with 12 samples.

Results

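Interferon-stimulated effector genes encode the proteins that carry out the antiviral state: enzymes and binders of foreign RNA, membrane proteins that block viral entry, and ubiquitin-like modifiers. The set described here is a list of 35 named genes of that kind. It was listed by symbol with earlier results of these data known, so its shares beside all genes are descriptive. Each gene is represented by the probe set that names it alone and has the highest mean over all arrays. All 35 were found among the 19775 genes that the arrays name in this way, and 33 of them passed the signal limit for testing, a log2 level of at least 5 on at least 3 arrays, as did 14080 genes in all. The members below that limit were GBP1 and IFI44L.

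RNA came from U937, a monocyte-like human leukaemia cell line, transduced with a vector that expresses EVI1 or with the empty vector. EVI1, a product of the MECOM gene, is an oncogenic DNA-binding protein with zinc fingers. All-trans retinoic acid (ATRA) is made from vitamin A, acts through nuclear retinoic acid receptors and matures some leukaemic cells. Both cell types were treated for 24 h with 1 µM ATRA or with DMSO, its solvent, which gave 4 groups of 3 arrays, called here vector DMSO and vector ATRA, and EVI1 DMSO and EVI1 ATRA. The series calls the replicates biological and numbers them 1, 2 and 3 in each group; values below are given in that order. Whether each transduced line is a pool or a clone is not given in the sources used here. The study asked whether EVI1 alters the response of myeloid cells to ATRA.

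In textbook outline, type I interferons bind the receptor IFNAR1 with IFNAR2, the kinases JAK1 and TYK2 phosphorylate STAT proteins, and these enter the nucleus with IRF9. The complex binds interferon-stimulated response elements in promoters, where IRF1 and IRF7 can bind as well. Interferon gamma uses another receptor pair and gamma-activated sites. In myeloid leukaemia cells, retinoids are known to raise several interferon-stimulated genes during maturation.

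The arrays had even signal, with medians from 5.29 to 5.35 on the log2 scale. Of 9 myeloid markers named alone on a probe set, 7 (PTPRC, SPI1, LYZ, AZU1, ITGB2, CSF1R and CD4) were at 5 or more on all 12 arrays. FCGR1A (3.21 to 3.80) and MPO (4.80 to 5.97) were not. The myeloid list averaged 8.09 to 8.47 per array, and was 8.09 to 8.28 on the DMSO arrays and 8.29 to 8.47 on the ATRA arrays. The lists for plasmacytoid dendritic, T and NK, B, erythroid, megakaryocyte, epithelial, and fibroblast and endothelial cells averaged 4.30 to 6.17. Reaching 5 on all arrays did not by itself separate cell types. It also held for 5 of 8 T and NK, 3 of 4 B, and 3 of 5 fibroblast and endothelial markers. For erythroid, megakaryocyte and epithelial markers it held for 1 of 2, 2 of 4 and 1 of 4. The plasmacytoid list, whose cells are strong interferon producers, read 5.93 to 6.11 on the DMSO arrays and 5.82 to 5.91 on the ATRA arrays; LILRA4, IL3RA and TCF4 were at 5 or more throughout, GZMB read 4.73 to 5.52, and its surface marker CLEC4C read 3.11 to 3.56. The B list was 5.68 to 5.85 in vector and 5.84 to 6.17 in EVI1 cells under DMSO, and 5.60 to 5.79 and 5.86 to 6.05 under ATRA, where its gene CD79B averaged 5.58 ± 0.14 and 6.34 ± 0.18. The part of these lists in the results was not tested. The 5 probe sets of MECOM read 2.61 to 3.60 in every group, near the bottom of the scale. Whether they lie in the stretch of the transcript that the vector carries is not given, so they say nothing about the EVI1 label. In RNA from whole cultures, more RNA per cell and more cells that carry a transcript cannot be told apart.

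Promoter sequence was examined for what the members share; the element searched first is known background for genes of this kind. RefSeq promoter windows of build GRCh38.p14, from 250 bases before to 50 bases after each annotated start, were found for 27 of the 35 members. OAS2, OASL, IFIT2, MX2, IFITM2, USP18, PML and TRIM22 had no entry. The core of the interferon-stimulated response element was searched as GAAANNGAAA on both strands. At least 1 window of 20 of the 27 members (74.1%) held it, against 4.38% of the 27305 genes in the table and 3.99% of the 15382 of them that the arrays name. The gamma-activated site core, searched as TTCNNNGAA, which reads the same on both strands, was held by 6 of the 27 (22.2%) against 9.38% of all genes. Direct repeats of the retinoic acid receptor element, with spacing 2 (DR2) or spacing 5 (DR5), were held by 0 of the 27 members, and by 0.0513% and 0.106% of all genes. A match is a run of letters and not a bound site. An element outside these windows, with other letters or with another spacing would not be seen.

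**Figure D1:**
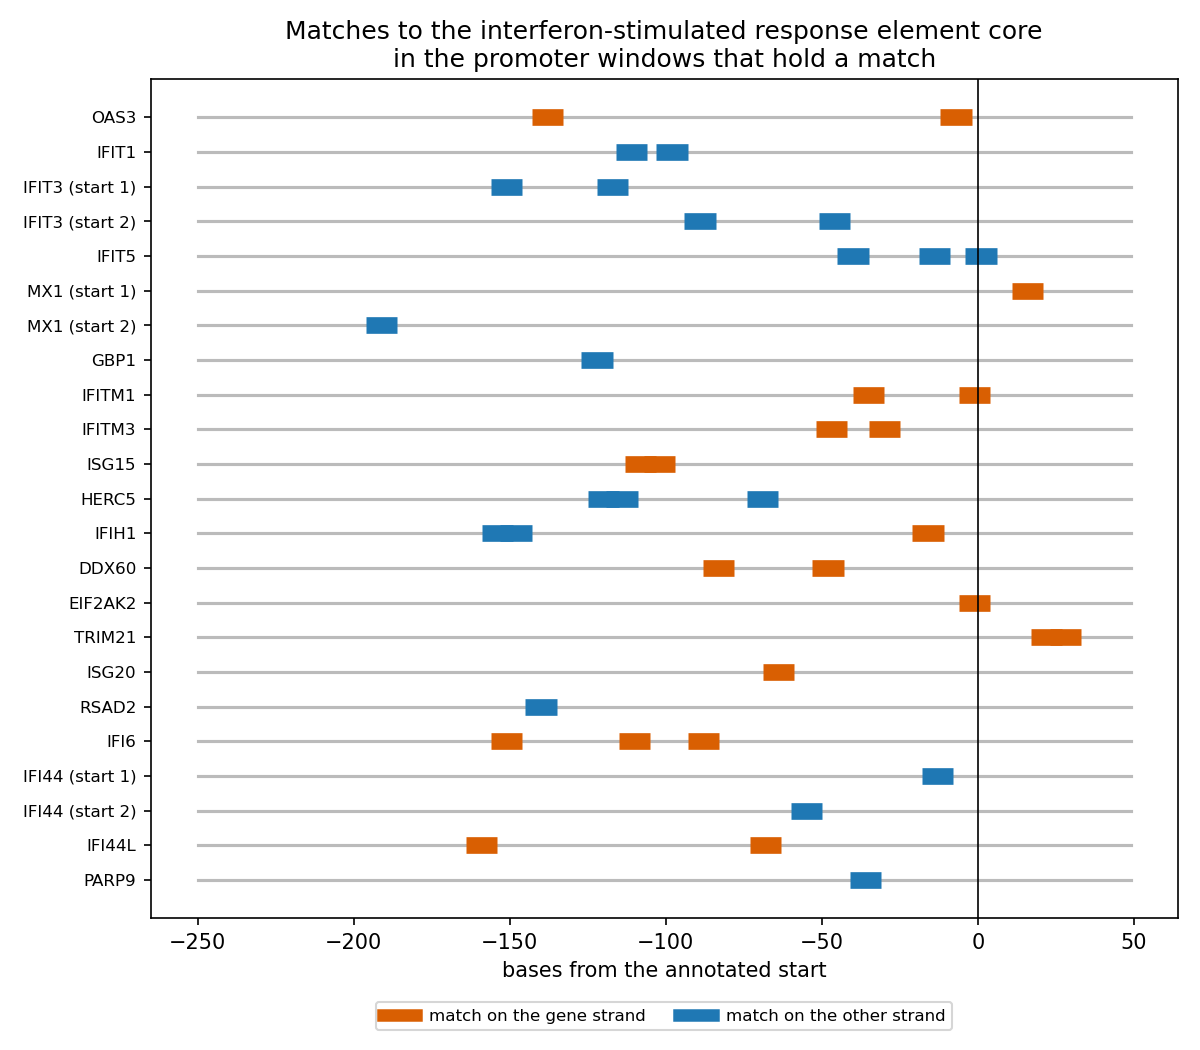
Positions of matches to the interferon-stimulated response element core in the promoter windows of members that hold a match. Each grey line is 1 window (bases from the annotated start at 0), orange blocks are matches on the strand of the gene and blue blocks matches on the other strand; ISG15, HERC5, IFIH1 and TRIM21 have matches that overlap, and a gene with several starts has 1 line per window.

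The following stretches, 5′ to 3′ on the strand of the gene, hold all the matches that lie before the start in their window. They are shown to set members with matches and different responses side by side: the first 6 were called higher with ATRA in EVI1 cells with the replicate number as a block (explained with the counts), and HERC5 and IFITM3 were not. Capitals mark the matches. A match on the other strand reads here as its reverse complement, and adjoining capitals in ISG15 and HERC5 are matches that overlap.
ISG15 (chr1:1013369-1013414, + strand): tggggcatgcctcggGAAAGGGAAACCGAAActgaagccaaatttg
IFI6 (chr1:27672261-27672363, - strand): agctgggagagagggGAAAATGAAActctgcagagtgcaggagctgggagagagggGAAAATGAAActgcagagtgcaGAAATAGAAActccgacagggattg
OAS3 (chr12:112938316-112938473, + strand): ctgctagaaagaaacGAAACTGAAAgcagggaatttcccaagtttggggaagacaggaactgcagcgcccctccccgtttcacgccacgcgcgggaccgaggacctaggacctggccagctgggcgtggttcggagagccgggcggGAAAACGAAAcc
IFIT1 (chr10:89392492-89392544, + strand): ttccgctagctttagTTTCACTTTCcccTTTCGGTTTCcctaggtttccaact
IFIT3 (chr10:89327826-89327899, + strand): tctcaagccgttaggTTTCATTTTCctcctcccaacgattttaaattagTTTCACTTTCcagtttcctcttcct
DDX60 (chr4:168318781-168318855, - strand): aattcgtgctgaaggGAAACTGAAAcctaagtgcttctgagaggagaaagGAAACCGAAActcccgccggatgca
HERC5 (chr4:88456979-88457069, + strand): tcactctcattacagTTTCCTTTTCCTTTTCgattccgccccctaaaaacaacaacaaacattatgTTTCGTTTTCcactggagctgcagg
IFITM3 (chr11:320871-320927, - strand): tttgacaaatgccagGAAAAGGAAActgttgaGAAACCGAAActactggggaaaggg

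ATRA was followed by higher levels of part of the set in both cell types. In vector cells 6 of the 33 tested members rose and 0 fell, while 2.00% of all genes tested rose and 1.52% fell. In EVI1 cells 14 members rose and 0 fell, against 7.45% and 7.66% of all genes. OAS3, SP110, TRIM21, TRIM22 and IFI35 rose in both. Rises and falls are limma calls, a Benjamini-Hochberg adjusted p under 0.05 over all 14080 genes in a fit of group means to the 12 arrays. The median member difference was 0.63 in vector cells and 0.69 in EVI1 cells, and that of all genes 0.00 and -0.02. The difference was above 0 in 29 of 33 members in either cell type. Arrays of the same number ran high or low together, so the fit was also made with the number as a block, and its counts are given beside the others. With the block 19 members were called higher in vector cells (9.96% of all genes higher, 10.1% lower), and 24 higher and 2 lower in EVI1 cells (16.3% and 19.4%). Single arrays weighed on the counts without the block. For ATRA in vector cells 0 members were called without vector DMSO 1 or 2 or vector ATRA 2 or 3, 1 without vector ATRA 1, 2 without EVI1 DMSO 2 or EVI1 ATRA 2, and 11 without EVI1 ATRA 1. For ATRA in EVI1 cells 7 were called without EVI1 ATRA 3, 8 without EVI1 DMSO 1, 9 without EVI1 ATRA 2, and 22 without EVI1 ATRA 1. Counts of all genes called in these fits are not given, so whether such changes are particular to the members cannot be told here.

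EVI1 cells had fewer member calls against vector cells, and most differences ran upward there too. Under DMSO 1 member rose and 0 fell (0.533% and 0.682% of all genes), and 10 were higher with the block (4.20% of all genes higher, 2.99% lower). Under ATRA 2 members rose and 0 fell (3.28% and 2.33% of all genes), and with the block 21 were higher and 1 was lower (13% and 12.3%). The median member difference was 0.35 under DMSO and 0.46 under ATRA, against 0.02 and -0.01 for all genes. The members called with the block under DMSO were OAS3, UBE2L6, HERC5, SP110, TRIM22, ISG20, RSAD2, IFI6, IFI35 and XAF1. Under ATRA the higher members were OAS1, OAS2, OAS3, OASL, IFIT1, IFIT2, IFIT3, ISG15, UBE2L6, USP18, IFIH1 and EIF2AK2. SP100, SP110, both TRIM genes, ISG20, IFI6, IFI35, XAF1 and PARP9 were also higher, and the lower member was IFITM1. Under ATRA, 1 member was called without EVI1 ATRA 3 or vector ATRA 2 or 3, and 15 without EVI1 ATRA 1. Under DMSO, 2 were called without EVI1 ATRA 3, and 0 without EVI1 ATRA 2, EVI1 DMSO 2 or 3 or any vector array. Counts of all genes are likewise not given for these fits. The comparisons share arrays: the EVI1 DMSO group enters both the ATRA comparison of EVI1 cells and the EVI1 comparison under DMSO, and likewise for the other groups.

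**Figure D2:**
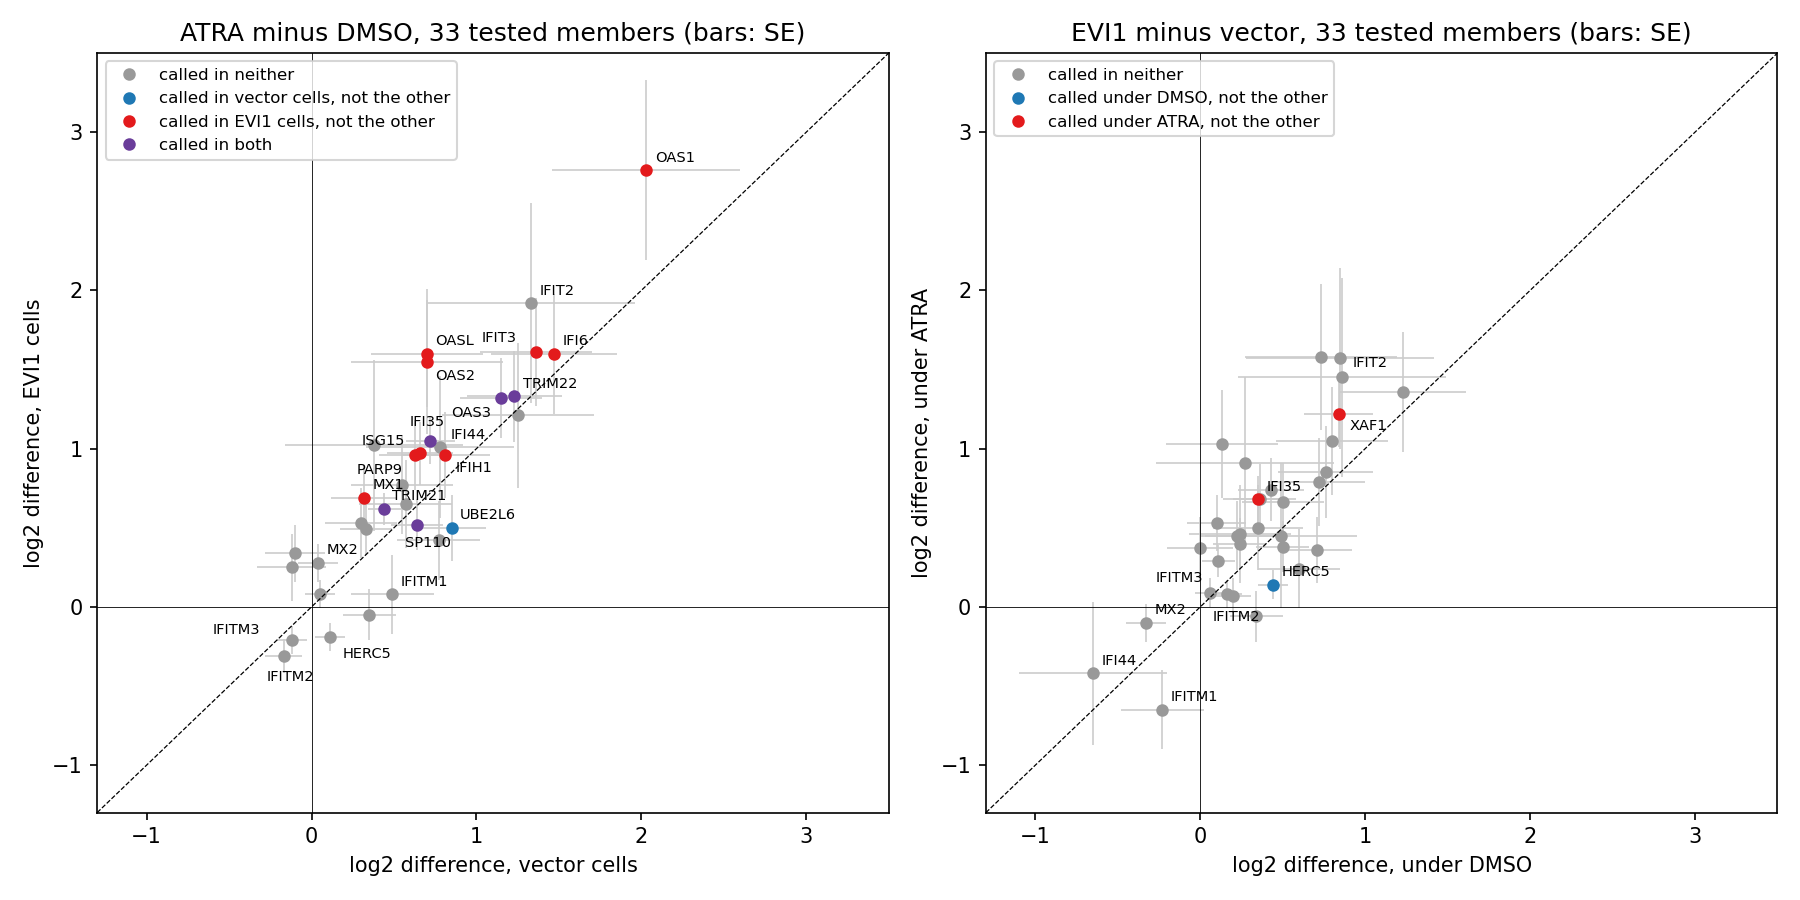
Log2 differences of the 33 tested members, with SE bars: ATRA minus DMSO in EVI1 cells against vector cells (left) and EVI1 minus vector under ATRA against under DMSO (right). Colours mark calls without the block and the dashed line marks equal differences; OAS1 has the largest ATRA difference in both cell types (2.03 and 2.76), and IFITM2 and IFITM3 lie below 0 on both axes of the left panel.

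The 2-5A synthetases make short 2′,5′-linked adenylate chains that switch on a latent ribonuclease, and all 4 family members rose with ATRA in EVI1 cells, 1 of them also in vector cells. OAS1 read 4.26, 5.03 and 4.87 with DMSO and 6.10, 6.55 and 7.60 with ATRA in vector cells, and 5.08, 5.49 and 6.13 with DMSO and 6.82, 8.80 and 9.35 with ATRA in EVI1 cells. Every ATRA array lay above every DMSO array of its cell type, by a wide margin for numbers 2 and 3 of the EVI1 cells. Its ATRA difference was 2.76 ± 0.57 (SE) in EVI1 cells, a 6.76-fold increase (limma adjusted p = 0.00860), and 2.03 ± 0.57 in vector cells (adjusted p = 0.0779; 0.00205 with the block). OAS3, the longest of the enzymes, read 6.59, 7.01 and 7.30 with DMSO and 7.64, 8.24 and 8.47 with ATRA in vector cells, and 7.09, 7.51 and 7.79 with DMSO and 8.47, 8.82 and 9.05 with ATRA in EVI1 cells. Neither pair of DMSO and ATRA groups overlapped, and number 1 was the lowest and number 3 the highest array in all 4 groups. OAS3 rose by 1.15 ± 0.25 in vector cells (adjusted p = 0.0318) and by 1.32 ± 0.25 in EVI1 cells (adjusted p = 0.00654). The vector call was lost without vector DMSO 1 or 2 or vector ATRA 2 or 3 (adjusted p 0.104 to 0.145).

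OAS2 and OASL also had their highest group mean in EVI1 ATRA. OAS2 read 4.43, 3.93 and 4.61 with DMSO and 4.56, 5.0 and 5.52 with ATRA in vector cells, and 4.37, 5.02 and 5.77 with DMSO and 5.49, 6.92 and 7.41 with ATRA in EVI1 cells. The last 2 groups overlapped, because EVI1 DMSO 3 lay above EVI1 ATRA 1. OAS2 rose by 1.55 ± 0.46 in EVI1 cells (adjusted p = 0.0415), a call lost without any of the vector DMSO arrays, vector ATRA 2, EVI1 DMSO 1 or 2, or EVI1 ATRA 2 or 3 (adjusted p 0.0529 to 0.181). OASL, a family member without synthetase activity that acts on RNA sensing, read 6.35, 6.71 and 6.53 with DMSO and 6.69, 7.34 and 7.66 with ATRA in vector cells, and 6.33, 6.50 and 7.14 with DMSO and 7.44, 8.46 and 8.87 with ATRA in EVI1 cells. Its EVI1 ATRA arrays all lay above its EVI1 DMSO arrays, while the vector groups overlapped. OASL rose by 1.60 ± 0.34 in EVI1 cells (adjusted p = 0.0106) and differed by 0.70 ± 0.34 in vector cells (adjusted p = 0.325; 0.0301 with the block). Between cell types under ATRA, OAS1, OAS2, OAS3 and OASL were higher in EVI1 cells by 1.57, 1.58, 0.66 and 1.03, differences called with the block only (adjusted p 0.000328 to 0.00614) and not without it (0.0704 to 0.156).

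The IFIT proteins bind the 5′ ends of foreign RNA. IFIT3 was the 1 of 4 tested that rose, in EVI1 cells. It read 7.17, 6.97 and 7.43 with DMSO and 8.26, 8.44 and 8.94 with ATRA in vector cells, and 7.74, 8.0 and 8.22 with DMSO and 8.89, 9.34 and 10.56 with ATRA in EVI1 cells. No group pair of the same cell type overlapped, and EVI1 DMSO lay wholly above vector DMSO. The ATRA difference of IFIT3 was 1.61 ± 0.34 in EVI1 cells, 3.05-fold (adjusted p = 0.00989), and 1.36 ± 0.34 in vector cells (adjusted p = 0.0522; 0.00219 with the block). IFIT2, whose arrays within the ATRA groups were spread more widely, averaged 5.41 ± 0.22 (SD, n = 3) with DMSO and 6.74 ± 0.90 with ATRA in vector cells, and 6.27 ± 0.39 with DMSO and 8.19 ± 1.57 with ATRA in EVI1 cells. Its ATRA groups lay wholly above the DMSO groups in both cell types, with adjusted p of 0.304 in vector and 0.0605 in EVI1 cells (0.0444 and 0.00436 with the block). IFIT1 averaged 5.48 ± 0.32, 5.86 ± 0.86, 5.75 ± 0.45 and 6.77 ± 1.23 in the same order of groups, and its groups overlapped. IFIT5 averaged 4.63 ± 0.16, 5.17 ± 0.29, 4.87 ± 0.20 and 5.64 ± 0.81. With the block both were called higher with ATRA in EVI1 cells (adjusted p = 0.0172 and 0.0143), where their differences were 1.02 ± 0.54 and 0.77 ± 0.31 in the fit without it.

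MX1 and MX2 are dynamin-like GTPases that trap viral capsids, and GBP1 is a guanylate-binding GTPase responsive to interferon gamma. MX1 read 4.58, 5.15 and 5.20 with DMSO and 5.32, 5.17 and 5.41 with ATRA in vector cells, and 4.90, 5.10 and 4.92 with DMSO and 5.40, 5.49 and 6.11 with ATRA in EVI1 cells. All arrays were close to the signal limit, and EVI1 ATRA 3 stood highest. MX1 rose by 0.69 ± 0.20 in EVI1 cells (adjusted p = 0.0356), a call lost without any EVI1 DMSO array or without EVI1 ATRA 2 or 3 (adjusted p 0.0566 to 0.146). MX2 was nearly level, at 9.68 ± 0.09 with DMSO and 9.72 ± 0.10 with ATRA in vector cells, and 9.35 ± 0.13 with DMSO and 9.62 ± 0.22 with ATRA in EVI1 cells. It was called in no comparison with or without the block; under DMSO it differed by -0.33 between EVI1 and vector cells (95% interval -0.61 to -0.06, adjusted p = 0.329). GBP1 was not tested, at 3.23 to 4.01 on the 9 arrays outside EVI1 ATRA and 3.92, 5.66 and 6.31 in that group. Only EVI1 ATRA 2 and 3 passed the limit, and their levels were the highest of GBP1 on any array.

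IFITM1, IFITM2 and IFITM3 sit in cell membranes and hinder fusion of viral envelopes, and 0 of the 3 rose in any comparison without the block. IFITM2 averaged 11.59 ± 0.12 with DMSO and 11.42 ± 0.13 with ATRA in vector cells, and 11.79 ± 0.16 with DMSO and 11.48 ± 0.07 with ATRA in EVI1 cells. IFITM3 averaged 10.53 ± 0.02, 10.40 ± 0.07, 10.69 ± 0.07 and 10.48 ± 0.06. These were the members whose ATRA difference lay below 0 in both cell types, by small amounts: -0.31 ± 0.11 for IFITM2 and -0.21 ± 0.09 for IFITM3 in EVI1 cells (adjusted p = 0.0915 and 0.138; 0.00892 and 0.0468 with the block, called lower). In EVI1 cells all ATRA arrays of both lay below all DMSO arrays. IFITM1 averaged 5.73 ± 0.31, 6.22 ± 0.56, 5.50 ± 0.23 and 5.58 ± 0.22. With the block it was called higher with ATRA in vector cells (0.49 ± 0.25 in the fit without it, adjusted p = 0.347; 0.0428 with the block), where the groups overlapped. Its EVI1 ATRA arrays were lower than the vector ATRA arrays by 0.65 ± 0.25 on average, with overlap (adjusted p = 0.160; 0.0112 with the block, called lower). The 3 genes are near-identical copies in part and the probe sets used for IFITM2 and IFITM3 are of a type that can read related transcripts, so the assignment of signal among them is uncertain.

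ISG15 is a ubiquitin-like protein; UBE2L6 is its conjugating enzyme, HERC5 its main ligase and USP18 the protease that removes it. ISG15 and UBE2L6 rose with ATRA, each in 1 cell type, and HERC5 rose with EVI1. ISG15 read 8.71, 8.63 and 8.66 with DMSO and 9.25, 9.18 and 9.54 with ATRA in vector cells, and 9.04, 9.24 and 9.02 with DMSO and 9.51, 10.19 and 10.50 with ATRA in EVI1 cells. Vector DMSO was tight and lowest, and EVI1 DMSO lay above it without overlap. ISG15 rose by 0.97 ± 0.20 with ATRA in EVI1 cells (adjusted p = 0.00929) and differed by 0.66 ± 0.20 in vector cells (adjusted p = 0.107; 0.0276 with the block). UBE2L6 read 9.62, 9.71 and 10.27 with DMSO and 10.65, 10.60 and 10.91 with ATRA in vector cells, and 10.22, 10.58 and 10.92 with DMSO and 10.81, 11.18 and 11.24 with ATRA in EVI1 cells. The lowest values were the vector DMSO arrays 1 and 2, and every group had number 3 on top. UBE2L6 rose by 0.85 ± 0.21 in vector cells (adjusted p = 0.0455), a call lost without vector DMSO 1 or 2, any vector ATRA array, EVI1 DMSO 2, or EVI1 ATRA 2 or 3 (adjusted p 0.0502 to 0.195). In EVI1 cells, whose DMSO mean was higher, the ATRA difference was 0.50 ± 0.21 (adjusted p = 0.128; 0.00469 with the block).

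HERC5 was the 1 member that rose with EVI1 under DMSO. It read 8.40, 8.47 and 8.59 with DMSO and 8.63, 8.53 and 8.63 with ATRA in vector cells, and 8.89, 9.01 and 8.88 with DMSO and 8.80, 8.74 and 8.67 with ATRA in EVI1 cells. All 6 EVI1 arrays lay above all 6 vector arrays, and the gap between the cell types was smaller under ATRA. The EVI1 difference was 0.44 ± 0.09 under DMSO (adjusted p = 0.0452; 0.00851 with the block) and 0.14 ± 0.09 under ATRA (adjusted p = 0.442). That call was lost without any single array other than EVI1 ATRA 1 or 3 (adjusted p 0.0594 to 0.174 for the other 10). USP18 averaged 6.22 ± 0.11 with DMSO and 6.12 ± 0.29 with ATRA in vector cells, and 6.32 ± 0.12 with DMSO and 6.65 ± 0.37 with ATRA in EVI1 cells. Under ATRA every EVI1 array of USP18 lay above every vector array, and the difference of 0.53 ± 0.18 was called with the block (adjusted p = 0.0187) and not without it (0.117).

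Among the sensors, IFIH1 (MDA5) and the helicase DDX60 recognise foreign RNA or assist in it, EIF2AK2 (PKR) is a kinase that halts translation on double-stranded RNA, and IFI16 binds DNA. IFIH1 read 6.80, 7.10 and 7.63 with DMSO and 7.87, 7.93 and 8.16 with ATRA in vector cells, and 7.12, 7.61 and 7.85 with DMSO and 7.96, 8.49 and 9.0 with ATRA in EVI1 cells. ATRA groups lay above DMSO groups in both cell types, and number 3 was the highest array in every group. IFIH1 rose by 0.96 ± 0.27 in EVI1 cells (adjusted p = 0.0355), a call lost without vector DMSO 2, EVI1 DMSO 1 or 2, or EVI1 ATRA 2 or 3 (adjusted p 0.0504 to 0.156). In vector cells the difference was 0.81 ± 0.27 (adjusted p = 0.139; 0.00177 with the block). DDX60 averaged 6.31 ± 0.85 and 7.57 ± 0.50 with DMSO and ATRA in vector cells and 6.81 ± 0.82 and 8.02 ± 0.46 in EVI1 cells. Number 1 was its lowest array in every group, and its ATRA differences of 1.25 and 1.21 were called with the block (adjusted p = 0.00121 and 0.000478), not without it (0.176 and 0.101). EIF2AK2 averaged 9.24 ± 0.21, 9.54 ± 0.33, 9.46 ± 0.26 and 9.99 ± 0.42, with overlap in each comparison; with the block it was called higher with ATRA in vector (adjusted p = 0.0428) and EVI1 cells (0.00136) and with EVI1 under ATRA (0.00639). IFI16 averaged 10.20 ± 0.18, 10.55 ± 0.32, 10.55 ± 0.15 and 10.50 ± 0.11, so that vector DMSO was its lowest group and the other groups lay close together. With the block IFI16 was called higher with ATRA in vector cells (0.35 ± 0.16 in the fit without it, adjusted p = 0.277; 0.0433 with the block).

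PML builds nuclear bodies, and SP100 and SP110 are bromodomain relatives that gather in or near them. SP110 rose with ATRA in both cell types. It read 8.40, 8.32 and 8.70 with DMSO and 9.16, 9.02 and 9.16 with ATRA in vector cells, and 8.79, 8.88 and 9.26 with DMSO and 9.30, 9.41 and 9.78 with ATRA in EVI1 cells. The groups compared did not overlap in any of the 4 comparisons. The rise was 0.64 ± 0.16 in vector cells (adjusted p = 0.04997) and 0.52 ± 0.16 in EVI1 cells (adjusted p = 0.0471), both next to the threshold. The vector call was lost without vector DMSO 1 or 2, any vector ATRA array, EVI1 DMSO 2 or EVI1 ATRA 2 (adjusted p 0.0689 to 0.191), and the EVI1 call without vector DMSO 1 or 2, any vector ATRA array, EVI1 DMSO 1 or 2, or EVI1 ATRA 2 or 3 (0.0558 to 0.200). SP100 averaged 8.18 ± 0.21, 8.51 ± 0.05, 8.42 ± 0.28 and 8.91 ± 0.21, with an ATRA difference in EVI1 cells of 0.49 ± 0.16 (adjusted p = 0.0579; 0.00598 with the block). PML averaged 7.35 ± 0.12, 7.40 ± 0.10, 7.41 ± 0.01 and 7.49 ± 0.03 and was called in no comparison with or without the block. Its 95% intervals for the ATRA difference were -0.16 to 0.26 in vector cells and -0.13 to 0.29 in EVI1 cells.

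The ubiquitin ligases TRIM21, an intracellular antibody receptor, and TRIM22 both rose with ATRA in both cell types. TRIM22 read 8.10, 7.78 and 8.66 with DMSO and 9.32, 9.16 and 9.75 with ATRA in vector cells, and 8.46, 8.94 and 9.41 with DMSO and 9.88, 10.24 and 10.67 with ATRA in EVI1 cells. ATRA arrays lay above DMSO arrays in each cell type, and EVI1 ATRA lay above vector ATRA without overlap. TRIM22 rose by 1.23 ± 0.29 in vector cells, 2.35-fold (adjusted p = 0.0377), and by 1.33 ± 0.29 in EVI1 cells, 2.51-fold (adjusted p = 0.0106). The first call was lost without vector DMSO 1 or 2, any vector ATRA array, EVI1 DMSO 2 or EVI1 ATRA 2 (adjusted p 0.0555 to 0.160), and the second without EVI1 ATRA 3 (0.0528). TRIM21 read 7.76, 7.66 and 7.82 with DMSO and 8.26, 8.10 and 8.19 with ATRA in vector cells, and 7.75, 7.92 and 7.90 with DMSO and 8.32, 8.50 and 8.60 with ATRA in EVI1 cells. No ATRA array overlapped the DMSO arrays of its cell type. TRIM21 rose by 0.44 ± 0.10 in vector cells (adjusted p = 0.0418) and by 0.62 ± 0.10 in EVI1 cells (adjusted p = 0.00338). The vector call was lost without any single vector array, EVI1 DMSO 2 or 3, or EVI1 ATRA 2 (adjusted p 0.0547 to 0.158).

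**Figure D3:**
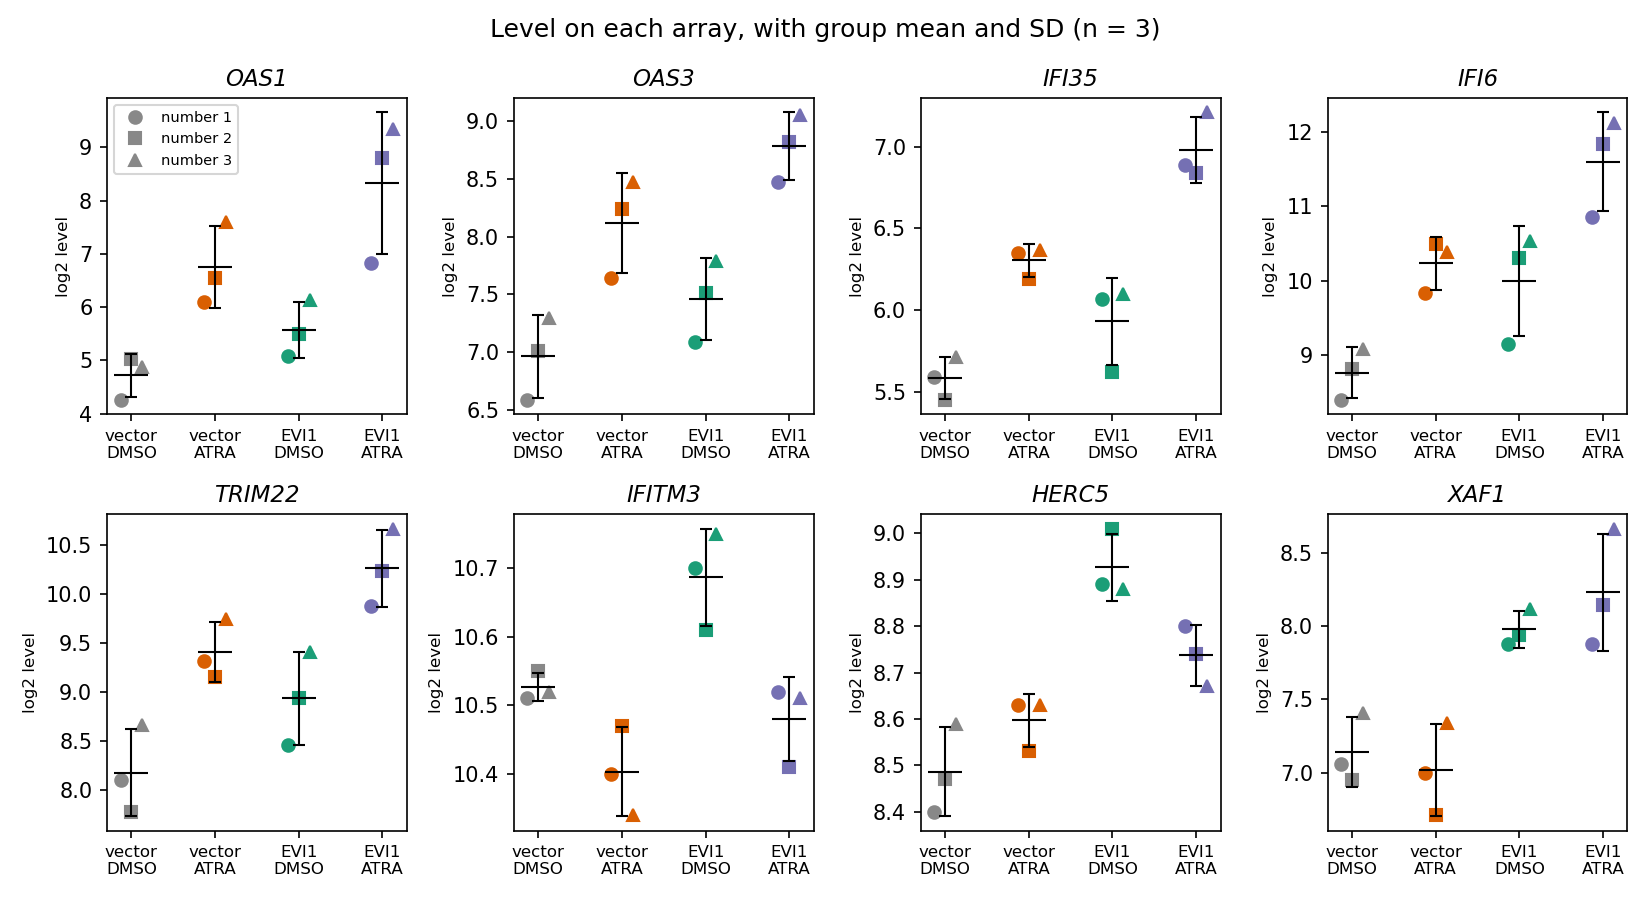
Log2 level of 8 members on each array, by group, with marker shapes for replicate numbers and black bars for the group mean and SD (n = 3); the vertical scale differs between panels. OAS1, OAS3, IFI35, IFI6 and TRIM22 have every ATRA array above every DMSO array of the same cell type, IFITM3 has them below, and in HERC5 and XAF1 all 6 EVI1 arrays lie above all 6 vector arrays.

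Among the remaining effectors, IFI35, which pairs with NMI, was called in 3 comparisons. It read 5.59, 5.45 and 5.71 with DMSO and 6.35, 6.19 and 6.37 with ATRA in vector cells, and 6.07, 5.62 and 6.10 with DMSO and 6.89, 6.84 and 7.21 with ATRA in EVI1 cells. The EVI1 ATRA arrays were above all other arrays of IFI35. It rose with ATRA by 0.72 ± 0.15 in vector cells (adjusted p = 0.0239) and by 1.05 ± 0.15 in EVI1 cells (adjusted p = 0.00153), and under ATRA it was higher in EVI1 cells by 0.68 ± 0.15 (adjusted p = 0.0217). The vector call was lost without vector DMSO 1 or 2 or any vector ATRA array (adjusted p 0.0729 to 0.104), and the EVI1 difference under ATRA without any vector ATRA array or EVI1 ATRA 3 (0.0569 to 0.101). IFI6, a membrane protein of the endoplasmic reticulum and mitochondria, read 8.40, 8.82 and 9.08 with DMSO and 9.83, 10.49 and 10.38 with ATRA in vector cells, and 9.15, 10.30 and 10.53 with DMSO and 10.85, 11.83 and 12.11 with ATRA in EVI1 cells. No groups that were compared overlapped. IFI6 rose by 1.60 ± 0.38 in EVI1 cells (adjusted p = 0.0161), a call lost without EVI1 DMSO 1 or EVI1 ATRA 2 or 3 (adjusted p 0.0570 to 0.0773). Its other differences were of like size and not called without the block: 1.47 ± 0.38 with ATRA in vector cells (adjusted p = 0.0584), 1.23 ± 0.38 with EVI1 under DMSO (0.188) and 1.36 ± 0.38 with EVI1 under ATRA (0.0591). With the block these 3 had adjusted p of 0.000360, 0.00131 and 0.000440.

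XAF1, which binds and counters the apoptosis inhibitor XIAP, differed with EVI1 and not detectably with ATRA. It read 7.06, 6.95 and 7.41 with DMSO and 7.0, 6.71 and 7.34 with ATRA in vector cells, and 7.88, 7.94 and 8.12 with DMSO and 7.88, 8.15 and 8.67 with ATRA in EVI1 cells. All EVI1 arrays lay above all vector arrays. XAF1 was higher in EVI1 cells by 1.22 ± 0.21 under ATRA, 2.32-fold (adjusted p = 0.00796), and by 0.84 ± 0.21 under DMSO (adjusted p = 0.0871; 0.00212 with the block). Its ATRA difference was -0.12 (95% interval -0.58 to 0.33) in vector cells and 0.25 (-0.20 to 0.71) in EVI1 cells. PARP9, an ADP-ribosyltransferase partner of the ligase DTX3L, read 6.83, 6.88 and 7.14 with DMSO and 7.39, 7.48 and 7.88 with ATRA in vector cells, and 6.89, 7.40 and 7.64 with DMSO and 7.97, 8.18 and 8.65 with ATRA in EVI1 cells. It was higher on all ATRA arrays than on the DMSO arrays of the same cell type. PARP9 rose by 0.96 ± 0.22 in EVI1 cells (adjusted p = 0.0131), a call lost without EVI1 DMSO 1 (0.0529) or EVI1 ATRA 3 (0.0619), and differed by 0.63 ± 0.22 in vector cells (adjusted p = 0.145; 0.00208 with the block).

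The other effectors without a call were the exonuclease ISG20, the radical enzyme RSAD2 (viperin), and IFI44. ISG20 averaged 5.54 ± 0.38 with DMSO and 6.11 ± 0.10 with ATRA in vector cells, and 6.25 ± 0.39 with DMSO and 6.90 ± 0.59 with ATRA in EVI1 cells, with both EVI1 groups wholly above the matching vector groups. RSAD2 averaged 4.89 ± 0.26, 5.66 ± 0.15, 5.49 ± 0.34 and 5.91 ± 0.53, and its vector ATRA arrays lay above its vector DMSO arrays. IFI44 averaged 4.87 ± 0.34, 5.66 ± 0.39, 4.23 ± 0.69 and 5.24 ± 1.02. Like MX2 and IFITM1, it had a lower mean in EVI1 than in vector cells under both agents (-0.65 ± 0.45 under DMSO and -0.42 ± 0.45 under ATRA; adjusted p = 0.782 and 0.677). With the block ISG20 and IFI44 were called higher with ATRA in EVI1 cells (adjusted p = 0.0192 and 0.0130), and RSAD2 with ATRA in both cell types (0.00477 and 0.0430). IFI44L stayed at 2.78 to 3.70 on all 12 arrays and was not tested.

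Read across the set, the group means fell into a common order. In 20 of the 33 tested members vector DMSO was lowest, followed by EVI1 DMSO, vector ATRA and EVI1 ATRA. The share of all genes with this full order was not counted. Vector DMSO was the lowest group in 25 members (28.6% of all genes tested) and EVI1 ATRA the highest in 26 (30.4% of all genes), and both held in 23 members (19.7% of all genes). The middle groups of that order overlapped for many members and were not tested against each other. HERC5, IFITM2, IFITM3 and IFI16 did not have EVI1 ATRA on top, nor did IFITM1, MX2 or IFI44. Overlap between single arrays was counted as well. With ATRA, all 3 arrays lay above all 3 DMSO arrays for 18 of 33 members in vector cells (12% of all genes) and 16 in EVI1 cells (13%). With EVI1, the same held for 10 members under DMSO (8.23%) and 11 under ATRA (12%).

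**Figure D4:**
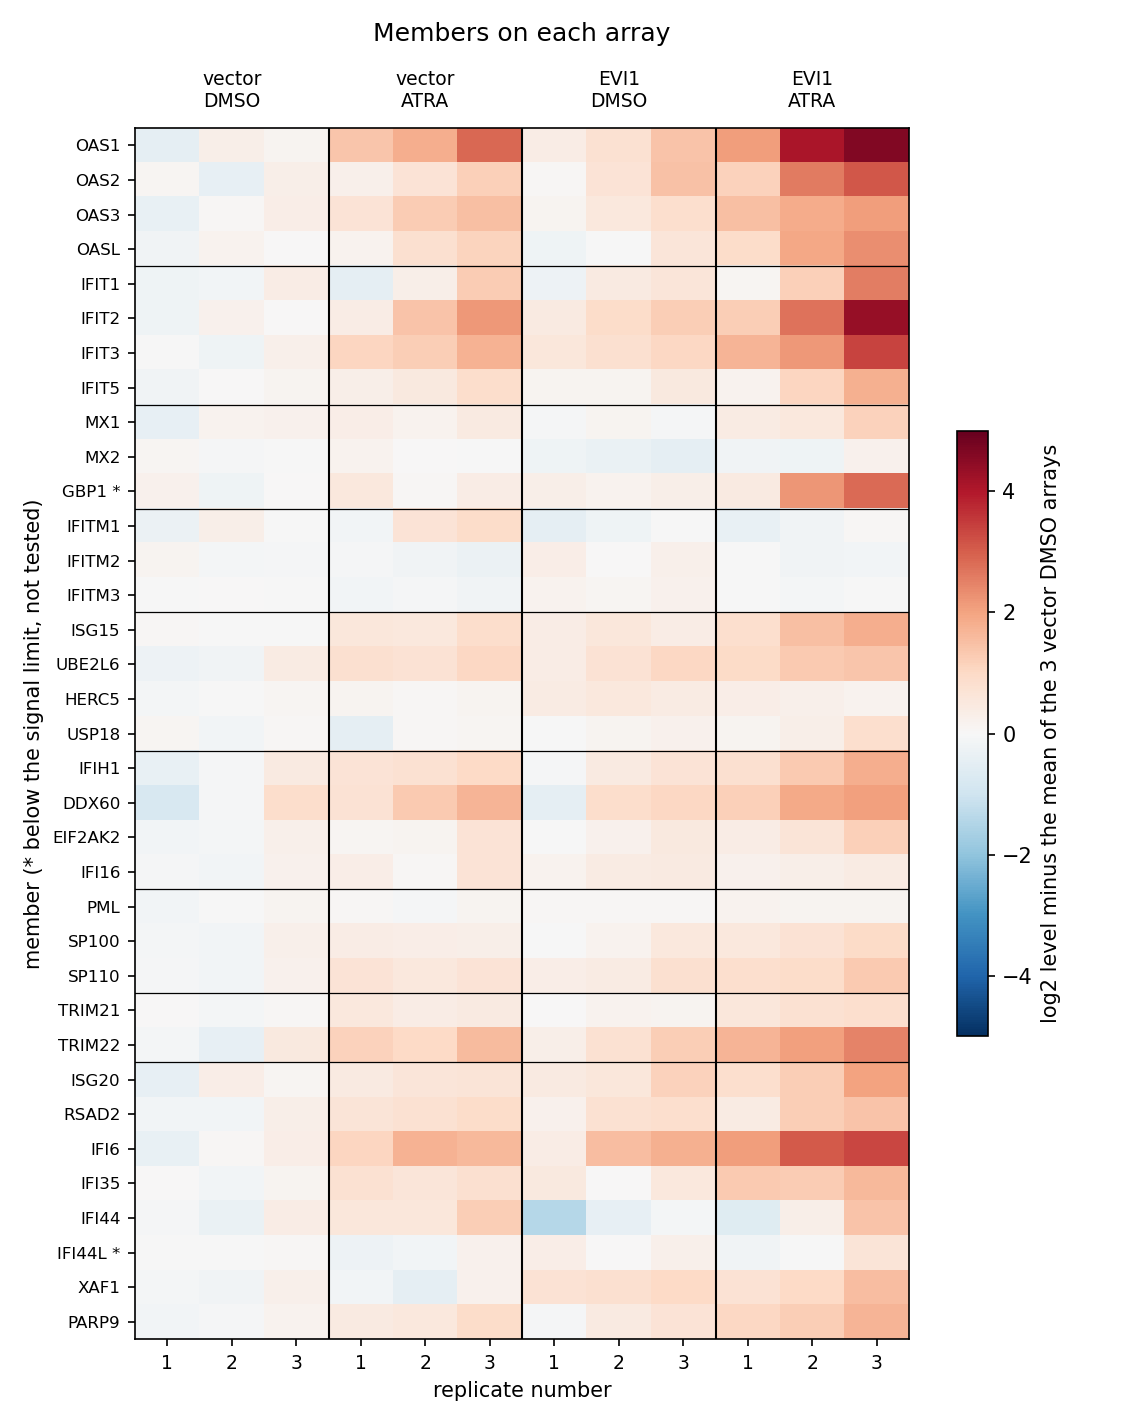
Log2 level of each of the 35 members on each of the 12 arrays, as the difference from the mean of the vector DMSO arrays (red higher, blue lower), with members ordered by role and separated by thin lines. Most rows are reddest in EVI1 ATRA and, within a group, in the column of number 3, while the rows of MX2, IFITM2, IFITM3, HERC5 and PML stay pale.

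The replicate number moved with the levels of this set. The member median, measured from the vector DMSO mean of each gene, was -0.12, -0.08 and 0.21 on vector DMSO arrays 1, 2 and 3. It was 0.38, 0.55 and 0.87 on the vector ATRA arrays, 0.12, 0.43 and 0.61 on the EVI1 DMSO arrays, and 0.74, 1.20 and 1.53 on the EVI1 ATRA arrays. Number 3 was the highest array of its group in 23, 27, 27 and 29 of the 33 members, for DMSO and ATRA in vector cells and then in EVI1 cells. Among all genes tested number 3 was highest in 34.7%, 26.6%, 29.0% and 30.2%. Within each number the order of the 4 groups by member median was the same as over the means. What the numbers mark is not given in the labels, and their part in the group differences was not tested beyond the block.

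No member was called for the interaction, the ATRA difference in EVI1 cells minus that in vector cells, by limma with or without the block. In all, 0.00% of genes were called for it, and 2.57% of all genes and 1 member (HERC5) had an unadjusted p under 0.05. With the block 8 members, 5 of them with a positive estimate, and 1846 of the 14080 genes had an unadjusted p under 0.05. That estimate was positive in 24 members and negative in 9, from -0.41 for IFITM1 to 0.90 for OASL. Without the block, the 95% interval of the OASL estimate was -0.16 to 1.96. That of OAS2 (0.85) was -0.57 to 2.27 and that of OAS1 (0.73) was -1.02 to 2.48. With the block the SEs of these estimates were smaller: 0.27 against 0.49 for OASL, 0.40 against 0.65 for OAS2 and 0.44 against 0.80 for OAS1. Adjusted p was 0.998 for each member without the block and 0.346 to 0.960 with it. The larger number of calls in EVI1 cells therefore does not show that a member responded differently there. SEs of the interaction reached 0.89 on the log2 scale without the block (IFIT2, 0.58 with it), which limits what these arrays could show.

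The promoter matches can be set beside these differences as a description. Of the members with a response element match, 18 were tested; 8 of them rose with ATRA in EVI1 cells (with the block 15 were higher and 1 lower) and their median difference was 0.86, from -0.21 to 1.61. Of the 7 members with a window and no match (OAS1, UBE2L6, IFI16, SP100, SP110, IFI35 and XAF1), 3 rose (5 with the block) and the median was 0.50, from -0.05 to 2.76. In vector cells 2 of the 18 with a match rose (11 with the block; median difference 0.60) and 3 of the 7 without one (5 with the block; median 0.64). The member with the largest ATRA difference, OAS1, had no match to this core in its 1 window, which held a gamma-activated site match. A response element with another spacing would not be counted there. HERC5 and IFITM3, printed above with 3 and 2 matches, had ATRA differences in EVI1 cells of -0.19 and -0.21. Whether the differences follow the element was not tested.

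The rest of the pathway was followed with a list of 63 other genes, of which 59 were named alone on a probe set and 47 were tested. The 7 interferon ligands on it (IFNA2, IFNB1, IFNE, IFNG, IFNK, IFNL1 and IFNW1) read 2.57 to 5.07 and were under the limit for testing in every group. Of the 47, 7 rose with ATRA in vector cells and 17 in EVI1 cells, 0 rose with EVI1 under DMSO and 6 under ATRA, and 0 fell in any of these. In that order, 2.00%, 7.45%, 0.533% and 3.28% of all genes tested rose, and 1.52%, 7.66%, 0.682% and 2.33% fell. With the block 22 rose and 0 fell, 31 rose and 2 fell, 9 rose and 1 fell, and 24 rose and 1 fell, in the same order. Of all genes tested, 9.96%, 16.3%, 4.20% and 13% were called higher with the block, and 10.1%, 19.4%, 2.99% and 12.3% lower. All 30 pathway calls without the block were also called with it, and 18 of them held without each array in turn: 1 of 7 for ATRA in vector cells (SAMHD1), 14 of 17 in EVI1 cells (not TBK1, IKBKE or APOBEC3G) and 3 of 6 for EVI1 under ATRA (JAK1, SOCS1 and SAMD9). Of 6 receptor chains tested, 1 rose without the block: IL10RB, the shared chain of the interferon lambda receptor, by 0.70 ± 0.17 in vector cells (adjusted p = 0.0412) and 0.99 ± 0.17 in EVI1 cells (0.00331). With the block IFNGR1 was also called higher with ATRA in EVI1 cells (adjusted p = 0.0406), and IFNAR1, IFNGR1 and IFNGR2 with EVI1 under ATRA (0.0376, 0.0142 and 0.0146). JAK1, the kinase used by all interferon receptors, rose by 0.70 ± 0.11 with ATRA in EVI1 cells (adjusted p = 0.00258) and was 0.73 ± 0.11 higher with EVI1 under ATRA (0.00445). Its ATRA difference in vector cells was 0.23 ± 0.11 (limma adjusted p = 0.305, and 0.105 with the block).

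Transcription factors of the pathway were among the genes that rose. IRF1 rose by 1.71 and 1.56 in vector and EVI1 cells (adjusted p = 0.0138 and 0.00666) and IRF7 by 1.06 and 1.26 (0.0329 and 0.00572). IRF9 rose by 1.65 ± 0.28 with ATRA in EVI1 cells (adjusted p = 0.00331) and was 1.12 ± 0.28 higher with EVI1 under ATRA (0.0363). Its ATRA difference in vector cells was 0.92 ± 0.28 (limma adjusted p = 0.0973, and 0.00155 with the block). Upstream in sensing, STING1, the adaptor for cytosolic DNA, rose by 1.81 ± 0.31 in EVI1 cells (adjusted p = 0.00348), as did the kinases TBK1 (0.50 ± 0.12, adjusted p = 0.0159) and IKBKE (0.49 ± 0.13, 0.0274). The ATRA differences of STING1, TBK1 and IKBKE in vector cells were 0.92, 0.30 and 0.40. They were called with the block (limma adjusted p = 0.0205, 0.0162 and 0.0103) and not without it (0.134, 0.209 and 0.135). The inhibitor SOCS1 rose by 0.58 ± 0.11 with ATRA in EVI1 cells (adjusted p = 0.00539) and was 0.72 ± 0.11 higher with EVI1 under ATRA (0.00430). Its ATRA difference in vector cells was 0.22 ± 0.11 (limma adjusted p = 0.317, and 0.146 with the block). Of 20 other interferon-stimulated genes tested, 4 rose with ATRA in vector cells and 8 in EVI1 cells, 0 with EVI1 under DMSO and 3 under ATRA, and 0 fell. The shares of all genes in either fit are those given with the pathway counts above. With the block 12, 14, 7 and 11 were higher, and 1 was lower with EVI1 under each agent. That gene was TNFSF10, the death ligand TRAIL, at -0.70 under DMSO and -0.58 under ATRA (adjusted p = 0.113 and 0.0950; 0.0331 and 0.0303 with the block). BST2, LGALS9, ADAR, TRIM25 and LAP3 had ATRA differences of -0.08 to 0.19 and were not called with ATRA in either fit. SAMHD1, which depletes deoxynucleotides, rose by 1.79 ± 0.23 in vector and 1.74 ± 0.23 in EVI1 cells (adjusted p = 0.00309 and 0.00127). GBP5 (1.5 and 1.84), PARP14 (1.37 and 1.29) and SAMD9L (1.36 and 1.52) rose with ATRA in both cell types, and the deaminase APOBEC3G (2.02), SAMD9 (1.58), PLSCR1 (0.82) and ZC3HAV1 (0.61) rose in EVI1 cells. For APOBEC3G and SAMD9 the vector differences of 1.22 and 0.94 were called with the block (limma adjusted p = 0.00154 and 0.00253) and not without it (0.209 and 0.0939). PLSCR1 and ZC3HAV1 averaged 9.45 and 10.24 with DMSO and 10.09 and 10.58 with ATRA in vector cells. No gene was called for the interaction. With EVI1 under ATRA, SAMD9, SAMD9L and PLSCR1 were higher by 1.53, 1.20 and 0.70 (adjusted p = 0.0101, 0.0421 and 0.0386).

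Agreement between probe sets in sign was checked where a member called without the block had several. The 5 other probe sets of members called with ATRA in vector cells, the 13 in EVI1 cells and the 2 with EVI1 under ATRA had the same sign as the one used. Sizes could differ. With ATRA in EVI1 cells and the probe set used first, OAS1 gave 2.76 and 2.59, OASL 1.60 and 1.36, and IFIT3 1.61 and 1.18. SP110 gave 0.52 on the probe set used and 0.51 to 0.85 on the others. Larger drops were seen for OAS2 (1.55, then 1.01 and 0.28), OAS3 (1.32, then 0.51), PARP9 (0.96, then 0.31) and IFIH1 (0.96, then 0.38 and 0.38). XAF1 with EVI1 under ATRA gave 1.22 on the probe set used and 0.30 and 0.57 on the others. Members called only with the block were not in that check. Of these, IFIT2 with ATRA in vector cells gave 1.33 on the probe set used and 0.01 on the other. For 16 of the 35 members a single probe set was named alone, so no such check was possible for them. The probe sets used for IFI16, SP110 and PML are, like those of IFITM2 and IFITM3, of the type whose probes can read related transcripts.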

How the data were processed

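Expression was measured on Affymetrix 3′ arrays in 12 samples, 4 groups of 3. The deposited values are log2 levels that the authors made by RMA; the submitters' processing notes name Affymetrix Expression Console 1.3. RMA compresses differences of dim probe sets, so their fold changes are understated. The authors' normalisation was kept. Probe sets were named from GEO's platform annotation: 41097 of 54675 carried 1 symbol, 1801 several and 11777 none. Each gene kept its probe set with the highest mean, and genes at log2 5 or more on 3 or more arrays were tested with limma 3.58.1 in R 4.3.3 (lmFit, eBayes, 8 residual degrees of freedom; 6 with the block), with Benjamini-Hochberg adjustment over 14080 genes and a threshold of 0.05. The code was tested on simulated data.

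Replicate numbers come from the labels. Deviations from group means correlated at 0.408 to 0.704 for the 18 pairs of arrays that share a number and at -0.56 to 0.164 for the other 36, so the numbers were taken to pair the arrays and the blocked fit is given beside the other. Where labels say no more than biological replicates, p-values measure the spread between these samples.

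All 35 members were named, with each array's value for members called without the block. Members and lists were chosen with earlier results of these data known. Alternatives covered the block, normalisation, filter, probe set choice, prior, the groups fitted and leaving out arrays. No set test was run, and the number of arrays limits precision.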

Additional observations from a re-analysis of the deposited data

Results flagged for a closer look

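HERC5, the ISG15 ligase, was singled out because its ATRA difference had opposite signs in the cell types on every replicate number. It was 0.23, 0.06 and 0.04 in vector cells and -0.09, -0.27 and -0.21 in EVI1 cells for numbers 1, 2 and 3. The interaction was -0.30 ± 0.13 (SE), and limma's adjusted p was 0.998 (0.348 with the block; unadjusted p = 0.0409), so the difference between cell types did not pass the threshold.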

How the results depend on the processing

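The count of members called depended on how replicate numbers and spread were handled, and no called member changed direction under any alternative. With the replicate block the counts were 19 and 26 for ATRA in vector and EVI1 cells and 10 and 22 for EVI1 under DMSO and ATRA, against 6, 14, 1 and 2 without it. With only the groups compared in the fit they were 10, 5, 0 and 1. With no filter 3 were called for ATRA in vector cells and 0 for EVI1 under DMSO. The latter was also 0 with quantile normalisation and with a trended robust prior, and that prior gave 4 for EVI1 under ATRA, where the median of probe sets gave 1. Leaving out 1 array gave 0 to 11, 7 to 22, 0 to 2 and 1 to 15. Counts of all genes called in these fits, and in the alternatives before them other than the block, are not given. The most calls came without EVI1 ATRA 1 (11 and 22 for ATRA in vector and EVI1 cells, 15 for EVI1 under ATRA) and, for EVI1 under DMSO, without EVI1 ATRA 3 (2). The fewest for ATRA in vector cells (0) came without vector DMSO 1 or 2 or vector ATRA 2 or 3, and for ATRA in EVI1 cells (7) without EVI1 ATRA 3. Of the 23 calls, 8 held without each array in turn. These were OAS1, OAS3, OASL, IFIT3, ISG15, TRIM21 and IFI35 with ATRA in EVI1 cells, and XAF1 with EVI1 under ATRA. Without all arrays of number 3, chosen after seeing the data, 5 were called for ATRA in EVI1 cells, 0 for EVI1 under DMSO and 1 under ATRA, with fewer samples. Of all 14080 genes, 459, 5 and 36 were called higher in that fit. Without both DMSO arrays of number 3, chosen likewise, EVI1 under DMSO had 0, with 9 of all genes called higher. The interaction had 0 calls throughout, with 1 member at an unadjusted p under 0.05 in limma without the block and 8 with it. Other causes were not tested. Signal near background limits GBP1, IFI44L, MX1, OAS2, IFIT5 and IFI44. On the vector DMSO arrays OAS1 (4.26, 5.03 and 4.87) and RSAD2 (4.74, 4.74 and 5.19) were also near the limit for testing.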
